A study of Mus musculus with 1012 samples.

Results

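NADPH oxidases are membrane enzymes that pass electrons from NADPH to oxygen and release superoxide or hydrogen peroxide. The phagocyte enzyme is built from a catalytic membrane protein encoded by Cybb (gp91phox, also called NOX2), its membrane partner Cyba (p22phox), cytosolic subunits that include Ncf1 (p47phox) and Ncf4 (p40phox), and the small GTPase Rac2, which is found mainly in blood cells. In resting phagocytes the cytosolic subunits stay apart from the membrane and join it upon activation, and the enzyme is known above all for killing microbes. Nox4 is a related catalytic protein of fibroblasts, preadipocytes and other stromal cells. It pairs with Cyba, needs none of the cytosolic subunits and releases mainly hydrogen peroxide.

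The genes described here are Ncf1, Ncf4, Cyba, Cybb, Rac2 and Nox4, 6 of 30452 features in the count table, chosen by name as subunits of the phagocyte or the stromal oxidase. They were followed through 1012 single-cell libraries made by Live-seq, by scRNA-seq, or by scRNA-seq of cells that had been sampled by Live-seq before. In Live-seq, a hollow probe withdraws part of the cytoplasm of a living cell, and in scRNA-seq the whole cell is lysed. Total counts per cell ranged from 38451 to 2671609, with a median of 479962.

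The macrophages were RAW264.7 cells, a mouse macrophage-like line, and mostly RAW-G9, a clone of that line with mCherry under the Tnf promoter and an EGFP-Rela fusion. RAW_Mock cells are labelled as not treated, although a figure legend of the study gives PBS for them. RAW_LPS cells received lipopolysaccharide for 4 to 5 h, at 40 ng/ul according to the series text and 100 ng/ml according to the methods. Only the Live-seq batch 5Reseq held wild-type RAW264.7 cells, 11 with LPS and 1 without. The single cell without LPS was left out of the sums and tests. It does count among the Live-seq RAW_Mock cells where shares of cells and median counts per cell are given. IBA cells are an immortalized line of brown preadipocytes from the interscapular fat of young male C57BL6/J mice. ASPC_Pre cells are primary stromal progenitors from the subcutaneous fat of female C57BL/6J mice aged 7 to 10 weeks, whose cells were pooled. ASPC_Post cells are the same after 2 days of an adipogenic mixture of dexamethasone, IBMX, insulin and rosiglitazone. A further experiment held IBA cells at 0 h (70 cells), 1 h (49) and 4 h (43) after Live-seq, and the methods describe controls that were not extracted, taken here to be the 0 h cells.

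The replicates are sums of all cells of a state within a batch, and levels are counts per 1e6 kept counts of that sum (CPM), after ribosomal protein and negative-control genes were left out. In scRNA-seq, the RAW_Mock sums held 16, 46 and 95 cells in batches 8_8, 9_1 and scRNA, the RAW_LPS sums 15, 46 and 88, the IBA sums 15, 45 and 93, the ASPC_Pre sums 16 and 44 in the former pair of batches, and the single ASPC_Post sum 35 (batch 9_1). In Live-seq, the RAW_Mock sums held 8, 20, 63 and 12 cells in batches 6, 7, 8_8 and 9_4, the RAW_LPS sums 4, 16, 9 and 10 in the same batches and 11 in 5Reseq, the IBA sums 13, 14 and 17 in batches 7, 8_8 and 9_4, the ASPC_Pre sums 18 and 43 in batches 8_8 and 9_4, and the ASPC_Post sum 37 (batch 9_4).

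The cell identities were checked on 10 macrophage and 10 mesenchymal marker genes. The macrophage list took 0.293 to 3.49% of counts in the RAW sums and at most 0.0607% in the IBA and ASPC sums, whereas the mesenchymal list took at most 0.000563% in RAW sums and 0.327 to 2.02% in the IBA and ASPC sums (0.261 to 0.288% in the IBA sums after Live-seq). Lists of 6 neutrophil and 4 endothelial genes took at most 0.000443% and 0.00476% in any state. A single library went against its label: an IBA cell of scRNA-seq batch 9_1 had counts for 10 of the 10 macrophage and 0 of the 10 mesenchymal genes. It weighs on the oxidase genes, because the other 44 cells of its sum held 2 counts of Ncf1, 8 of Ncf4, 1 of Cybb and 1 of Rac2, while this library alone held 96 counts of Ncf1 and 99 of Cybb. Folds and calls of the 6 genes between RAW_Mock and IBA with ASPC_Pre, and the LPS fit of Cybb, are given with and without it. Levels of Cybb and Cyba in its sum are given both ways too. Other scRNA-seq levels, shares of cells and fits include it unless stated.

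Ncf1 (ENSMUSG00000015950) lies on chromosome 5 at 134220053-134229625, minus strand, of GRCm38. Cyba (ENSMUSG00000006519) lies on chromosome 8 at 122424776-122432930, minus strand. Ncf4 (ENSMUSG00000071715) and Rac2 (ENSMUSG00000033220) lie on chromosome 15, at 78244801-78262580 on the plus strand and 78559167-78572783 on the minus strand. Cybb (ENSMUSG00000015340) is X-linked, at 9435252-9487771, minus strand, and Nox4 (ENSMUSG00000030562) lies on chromosome 7 at 87246096-87398710, plus strand. All are protein-coding genes. Ncf1 overlaps exons of Gtf2ird2 on the opposite strand. Counting ignored strand, so that reads of the shared bases cannot be told apart. The paper counted in the union mode of HTSeq, in which a read over both genes is given to neither. Gtf2ird2 had 5605 counts over all cells.

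RefSeq promoters were at hand for 4 of the 6 genes, and 3 are shown: Cybb and Ncf1, the catalytic and organizing subunits of the phagocyte enzyme, and Cyba, the subunit that the phagocyte and stromal enzymes share. Each line holds the 250 bases before the annotated transcription start, in the direction of the gene, from GRCm38.p6: Cybb at chrX:9469325-9469574 (minus strand), Ncf1 at chr5:134229626-134229875 (minus strand) and Cyba at chr8:122432941-122433190 (minus strand). The Cybb window lies in an intron of a longer annotated transcript of the gene. Capitals mark matches, on either strand, to a simple interferon-stimulated element, GAAA and GAAA with any 2 bases between them.
Cybb: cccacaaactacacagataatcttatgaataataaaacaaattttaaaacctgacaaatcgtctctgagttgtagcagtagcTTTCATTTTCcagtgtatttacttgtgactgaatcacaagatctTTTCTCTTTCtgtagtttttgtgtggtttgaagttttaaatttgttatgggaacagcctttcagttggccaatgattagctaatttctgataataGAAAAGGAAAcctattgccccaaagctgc
Ncf1: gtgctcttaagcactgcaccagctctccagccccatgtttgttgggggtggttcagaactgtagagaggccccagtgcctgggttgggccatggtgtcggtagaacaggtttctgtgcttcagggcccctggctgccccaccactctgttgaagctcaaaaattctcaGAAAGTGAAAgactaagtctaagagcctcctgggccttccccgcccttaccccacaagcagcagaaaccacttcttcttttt
Cyba: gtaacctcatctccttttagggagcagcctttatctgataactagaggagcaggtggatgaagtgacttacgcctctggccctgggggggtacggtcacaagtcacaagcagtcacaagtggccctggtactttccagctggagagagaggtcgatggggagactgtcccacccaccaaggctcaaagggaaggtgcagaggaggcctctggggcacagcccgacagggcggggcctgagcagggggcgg

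The Cybb promoter held 3 matches to this element, the nearest starting 29 bases before the transcription start, and the Ncf1 promoter held 1, at 82 bases. At least 1 match was present in 2.98% of 32851 RefSeq promoters of the same length, and 3 or more in 4 of them (0.0122%). The Cyba and Nox4 promoters held none. Exact matches to GAGGAA (a strict form of the PU.1 site), TGACTCA (AP-1) and TATAAA (the TATA box) were sought on both strands. They were in none of the 4 promoters and in 23.3%, 4.46% and 12.4% of all promoters. Shorter or looser forms of these sites were not searched, so their absence is not shown. The promoters also differed in base composition. GC content was 34% at Cybb, 54.4% at Ncf1, 60% at Cyba and 67.2% at Nox4, around a median of 52.4% over all promoters, and the windows held 1, 2, 6 and 20 CG dinucleotides. These are matches of letters in a window, and factor binding was not measured.

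Cybb, Ncf1, Ncf4 and Rac2 were expressed in macrophages and nearly absent from preadipocytes and progenitors, Cyba was present in every cell type at different levels, and Nox4 was detected mainly in the stromal cells. The plot of levels by state shows these 3 patterns in both techniques.

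**Figure D1:**
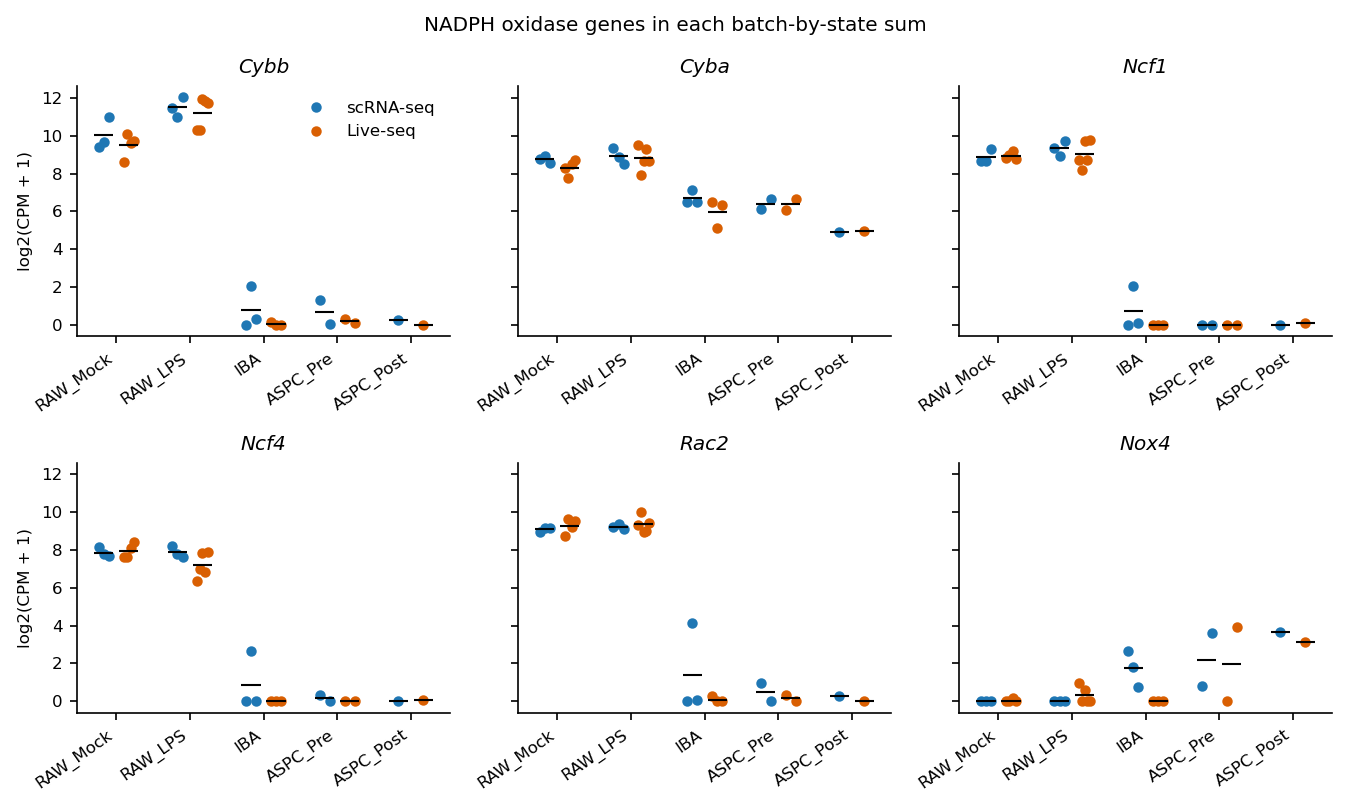
Level of each gene, as log2 of CPM plus 1, in every sum of cells of a state within a batch, for scRNA-seq (blue) and Live-seq (orange), with black bars for the mean. Cybb, Ncf1, Ncf4 and Rac2 lie above 6 in all RAW sums and below 5 elsewhere, the raised scRNA-seq IBA point being the batch that holds the cell against its label, while Cyba is present throughout and Nox4 stays below 1 in RAW sums.

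In scRNA-seq, the RAW_Mock sums had 666.7 CPM of Cybb in batch 8_8, 824.9 in batch 9_1 and 2047 in batch scRNA. The IBA sums of these batches had 0, 3.18 and 0.248 CPM, and the ASPC_Pre sums had 1.46 CPM in batch 8_8 and 0.0411 CPM in batch 9_1. Every macrophage sum lay above every stromal sum, and the IBA value of batch 9_1 was 0.0324 CPM without the cell against its label. The share of all genes whose macrophage and stromal sums separate was not computed. Pooled over sums and without that cell, Cybb was 8838-fold higher in RAW_Mock than in IBA and ASPC_Pre (95% interval 5442 to 15464, counting error only), and 1237-fold with it.

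Ncf1 was 12580.5-fold higher in RAW_Mock without that cell (4913 to 46176), resting on 4 counts in the other cells, and 506.2-fold higher with it. Ncf4 was 2299-fold (1211 to 5030) and 123.9-fold higher, without and with the cell. For Rac2 these values were 9227-fold (4239 to 25145) and 104.5-fold. All 4 genes stayed over 100-fold higher in macrophages with the cell included.

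Live-seq gave the same order. Cybb had 384.9, 1110.2, 789.8 and 856.97 CPM in the RAW_Mock sums of batches 6, 7, 8_8 and 9_4, against 0 to 0.103 CPM in the 3 IBA sums and 0.0629 and 0.249 CPM in the 2 ASPC_Pre sums. Ncf1 and Ncf4 had no count in the IBA and ASPC_Pre sums, so that they were at least 7469-fold and at least 3673-fold higher in RAW_Mock, with the other cells set to 3 counts in total. Cybb was 11972-fold (4096 to 58058) and Rac2 9208-fold (3150 to 44654) higher, each against 3 counts.

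In edgeR's quasi-likelihood test on the sums, with an adjusted p under 0.05 and an absolute log2 fold change over 1 as the call, all 6 genes were called in scRNA-seq between RAW_Mock and the mean of IBA and ASPC_Pre, 5 higher and 1 lower. The same contrast called 38% of all genes tested, 12.9% higher and 25% lower. The members were chosen with earlier results of these data known. Ncf1, Ncf4, Cybb and Rac2 passed the count filter only through RAW cells, and Nox4 only through stromal cells. Calls of these genes in either technique were therefore close to given. They restate the levels, and the share of members called is no further support. The adjusted p was 0.000174 for Cybb, 0.000232 for Ncf1, 0.000443 for Ncf4, 0.00127 for Rac2 and 0.000167 for Cyba, all higher in macrophages, and 0.0176 for Nox4, which was lower. Without the cell against its label all 6 were called again, with adjusted p of 1.17e-06 for Cybb, 1.19e-07 for Ncf1, 1.96e-06 for Ncf4, 9.96e-07 for Rac2, 9.7e-05 for Cyba and 0.015 for Nox4. In Live-seq, 4 of the 6 were called, all higher, against 2.87% of all genes (1.26% higher, 1.62% lower). These were Cybb (adjusted p = 4.99e-06), Rac2 (0.00014), Ncf1 (0.000298) and Ncf4 (0.00102), of which Ncf4 lost its call without batch 8_8 (0.0818) or batch 9_4 (0.0608). The fitted fold changes of these 4 genes and of Nox4 in this contrast are against groups near 0, depend on the prior count and are not given.

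Cyba, which serves NOX2 and NOX4 alike, was the subunit that both kinds of cell shared. The RAW_Mock sums had 430.4, 492.5 and 375.3 CPM in scRNA-seq, the IBA sums 87.5, 136.97 and 90.1 CPM, and the ASPC_Pre sums 67.8 and 100.04 CPM. Without the cell against its label, the IBA sum of batch 9_1 had 128.4 CPM. Macrophage and stromal values did not overlap, and the share of all genes with such a separation was not computed. Pooled over sums, Cyba was 3.99-fold higher in RAW_Mock in scRNA-seq (4.10-fold without the cell against its label) and 3.91-fold higher in Live-seq. The fitted log2 fold change was 2.04 (SE 0.23) in scRNA-seq. In Live-seq it was 2.03 (SE 0.58), with an adjusted p of 0.0965, and did not pass; it passed with DESeq2 (adjusted p = 0.0162) and with the newer edgeR fit (0.0397).

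None of the 6 genes was called between IBA and ASPC_Pre, the 2 stromal cell types. Ncf1, Ncf4, Cybb and Rac2 passed the count filter only through RAW cells and were near 0 in both types. For these genes the contrast could hardly give a call, so their lack of calls is no result. In scRNA-seq, edgeR and DESeq2 called 0 of the 6 and none had an unadjusted p under 0.05, where 11.2% of all genes were called (3.69% higher, 7.47% lower) and 30.2% had an unadjusted p under 0.05. In Live-seq, both tools again called 0 of the 6 and none had an unadjusted p under 0.05. There, edgeR called 0.0223% of all genes (0.00743% higher, 0.0149% lower), DESeq2 2.06%, and 3.95% had an unadjusted p under 0.05. Cyba differed by 0.16 on the log2 scale in scRNA-seq (SE 0.30) and by -0.57 in Live-seq (SE 0.76), IBA against ASPC_Pre.

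LPS is sensed through TLR4, and the phagocyte oxidase is among the activities it primes in macrophages. Cybb was higher with LPS in 7 of 7 batches that held both states, by 2.04 to 4.56-fold, whereas Ncf1 was higher in 5 of 7, and Cyba, Ncf4 and Rac2 in 3 of 7 each. The shares of all genes that rose in every batch, or whose mock and LPS sums did not overlap, were not computed. No member passed the adjusted threshold in either technique in edgeR's test.

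**Figure D2:**
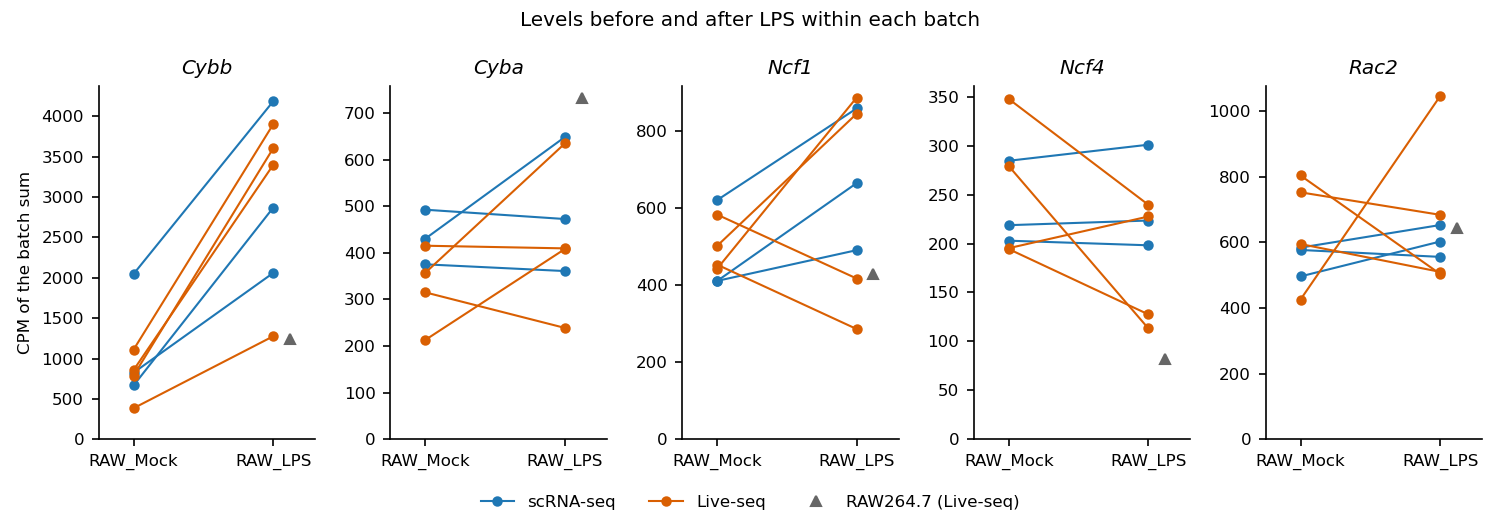
CPM of each phagocyte oxidase gene in RAW_Mock and RAW_LPS sums, with a line joining the 2 states of a batch, for scRNA-seq (blue) and Live-seq (orange); the triangle is the wild-type RAW264.7 batch, which has no mock sum. All 7 Cybb lines go up, by 2.04 to 4.56-fold, and the lines of Cyba, Ncf4 and Rac2 cross.

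Cybb went from 666.7 to 2867 CPM in scRNA-seq batch 8_8, from 824.9 to 2059 CPM in batch 9_1 and from 2047 to 4184 CPM in batch scRNA. In Live-seq it went from 384.9 to 1275 CPM in batch 6, from 1110.2 to 3899.6 in batch 7, from 789.8 to 3602 in batch 8_8 and from 856.97 to 3396 in batch 9_4, and the wild-type sum with LPS had 1244 CPM. Mock and LPS sums did not overlap in either technique, although the mock sum of batch scRNA lay just under the LPS sum of batch 9_1. Batch 6 was the thinnest, since 1 of 8 mock cells held 85.5% of the Cybb counts and 1 of 4 LPS cells 52.4%. Means were 1179 ± 755.3 and 3037 ± 1072 CPM in scRNA-seq (SD, n = 3 each) and 785.5 ± 300.6 (n = 4) and 2684 ± 1312 CPM (n = 5) in Live-seq.

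With batch in the model, the log2 fold change of Cybb was 1.58 in scRNA-seq (SE 0.89, edgeR adjusted p = 0.481) and 1.96 in Live-seq (SE 0.43, unadjusted p = 0.000845, adjusted p = 0.863). In scRNA-seq, edgeR and DESeq2 called 0 of the 6 genes and none had an unadjusted p under 0.05, beside 1.23% of all genes called by edgeR (0.921% higher, 0.310% lower). Nox4 had no count in scRNA-seq RAW cells and few in Live-seq RAW cells, so its lack of a call with LPS is no result. In Live-seq, edgeR called no gene of the table (0%), 4.02% had an unadjusted p under 0.05, among the 6 only Cybb, and DESeq2 called 4.79%, among the 6 again only Cybb (2.05, SE 0.62, adjusted p = 0.0253). Over all alternatives, the log2 fold change of Cybb ran from 1.31 to 1.85 in scRNA-seq and from 1.83 to 2.17 in Live-seq, and its adjusted p from 0.0355 to 0.728 and from 0.0253 to 1. Without the IBA cell that goes against its label, which enters the shared estimate of spread, the scRNA-seq value was 1.59 (SE 0.44, adjusted p = 0.127). When every cell was thinned to 50000 counts before summing, it passed (1.65, SE 0.41, adjusted p = 0.0355).

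Tnf, the cytokine gene whose promoter drives the reporter, served as a check of the treatment and had 3.39 (SE 0.88, adjusted p = 0.116) in scRNA-seq and 3.63 (SE 0.46, adjusted p = 0.199) in Live-seq. In Live-seq, the share of counts from the macrophage marker list was 0.293 to 1.32% in RAW_Mock sums and 0.787 to 3.49% in RAW_LPS sums, and in scRNA-seq 0.809 to 1.10% and 0.785 to 0.996%. The part of this shift in the Live-seq differences was not tested.

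**Figure D3:**
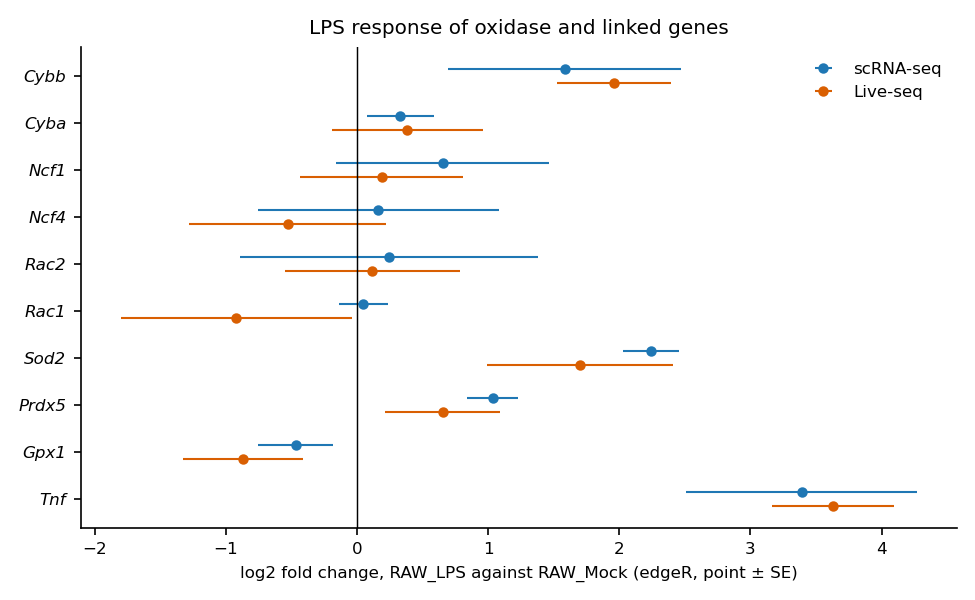
Fitted log2 fold change of RAW_LPS against RAW_Mock with its SE, for oxidase genes, genes that remove superoxide and peroxide, and Tnf, in scRNA-seq (blue) and Live-seq (orange). Cybb lies at 1.58 and 1.96, Cyba, Ncf1, Ncf4 and Rac2 lie between -0.53 and 0.65, and Sod2 lies at 2.24 and 1.70.

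Cyba, the partner that stabilizes the catalytic protein, showed no common direction. It went from 430.4 to 648.5 CPM in scRNA-seq batch 8_8, from 492.5 to 472.5 in batch 9_1 and from 375.3 to 360.9 in batch scRNA. In Live-seq it went from 315.2 to 238.9, 213.1 to 408.3, 357.2 to 634.7 and 415.3 to 409.6 CPM in batches 6, 7, 8_8 and 9_4, and it was at 731.96 CPM in wild-type cells with LPS. The states overlapped in both techniques, and the log2 fold changes were 0.33 (SE 0.25, edgeR adjusted p = 0.642) and 0.38 (SE 0.57, adjusted p = 1).

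Levels of different genes were compared per kilobase of exon. On this scale Cyba was the most abundant subunit of mock-treated cells in scRNA-seq, at 416.5 ± 56.4 CPM per kb (SD, n = 3), followed by Cybb at 203.07 ± 130.04, Rac2 at 178.1 ± 15.7, Ncf1 at 131.04 ± 32.998 and Ncf4 at 116.6 ± 21.4. The spread of Cybb covered the means of Rac2, Ncf1 and Ncf4. With LPS, Cybb stood at 522.8 ± 184.7 and Cyba at 475.4 ± 139.5 CPM per kb, which do not differ beyond their spread.

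The ratio of Cybb to Cyba per kilobase was higher with LPS in 7 of 7 batches, following Cybb. It went from 0.277 to 0.791 (batch 8_8), from 0.300 to 0.780 (9_1) and from 0.976 to 2.07 (scRNA) in scRNA-seq. In Live-seq it went from 0.218 to 0.955 (batch 6), from 0.932 to 1.71 (7), from 0.396 to 1.02 (8_8) and from 0.369 to 1.48 (9_4). The wild-type sum with LPS was at 0.304, below every RAW-G9 sum with LPS, and with a single wild-type sum the line and the batch cannot be told apart.

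Ncf1, the organizer that carries the cytosolic complex to the membrane, went from 410.03 to 663.8, from 410.4 to 490.1 and from 619.6 to 857.3 CPM in the 3 scRNA-seq batches, higher in each. The Live-seq batches were split. Ncf1 went from 452.7 to 285.7 CPM in batch 6 and from 582.3 to 416.6 in batch 8_8, but from 500.97 to 843.6 in batch 7 and from 441.7 to 885.4 in batch 9_4. The log2 fold changes were 0.65 (SE 0.81, edgeR adjusted p = 0.819) and 0.19 (SE 0.62, adjusted p = 1), and the Live-seq value was -0.15 without batch 7 or batch 9_4.

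Ncf4, whose product binds a phosphoinositide of the phagosome membrane, went from 284.6 to 301.005, from 218.8 to 223.5 and from 202.9 to 198.2 CPM in scRNA-seq. In Live-seq it went from 194.4 to 127.6, 195.3 to 227.7, 279.2 to 113.2 and 347.7 to 239.6 CPM in batches 6, 7, 8_8 and 9_4, and the wild-type sum had 82.2 CPM. It was thus lower in 3 of the 4 Live-seq batches, in 1 of 3 scRNA-seq batches, and the ranges overlapped in both. The log2 fold changes were 0.16 (SE 0.92) and -0.53 (SE 0.75), both with an edgeR adjusted p of 1.

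Rac2, the GTPase that switches the assembled enzyme on, went from 496.4 to 602.7, from 584.2 to 653.03 and from 577.1 to 555.97 CPM in scRNA-seq. In Live-seq it went from 425.8 to 1046 CPM in batch 6, from 804.02 to 503.9 in batch 7, from 595.2 to 510.3 in batch 8_8 and from 752.7 to 684.1 in batch 9_4. The value of batch 6 with LPS, the highest, came from 4 cells, of which 1 held 49.2% of the counts. The log2 fold changes were 0.24 (SE 1.13) and 0.12 (SE 0.67), both with an edgeR adjusted p of 1, and the Live-seq value was -0.14 without batch 6.

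In 4 cells, Live-seq was performed both before and after LPS. Cybb went from 0 to 5098, from 2451 to 5069, from 653.3 to 172.9 and from 0 to 4903 CPM, higher in 3 of 4. Ncf1 was also higher in 3 of 4, Ncf4 and Rac2 in 2 of 4 and Cyba in 1 of 4. A value of 0 is common in single biopsies, as the shares of cells with a count show.

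Biopsies showed each subunit in fewer cells than whole-cell libraries did. In scRNA-seq, each of the 5 phagocyte genes had a count in all RAW_Mock cells and in at least 99.3% of RAW_LPS cells. In Live-seq RAW_Mock cells the shares were 82.7% for Cyba and Rac2, 78.8% for Ncf1, 73.1% for Cybb and 67.3% for Ncf4. In Live-seq RAW_LPS cells they were 45 of 50 cells for Cyba, 44 for Cybb, 41 for Ncf1, 40 for Rac2 and 32 for Ncf4. All 5 genes were seen together in 98.7% of scRNA-seq RAW_LPS cells, but in 47.1% of Live-seq RAW_Mock cells and in 26 of 50 Live-seq RAW_LPS cells.

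Median kept counts per cell were 284864 in Live-seq and 332313 in scRNA-seq for RAW_Mock, and 476492 and 353613 for RAW_LPS. After each cell was thinned to 50000 counts, Cybb was still seen in 70.6% of Live-seq RAW_Mock cells and in 41 of 49 RAW_LPS cells (83.7%). The matching background is Cybb in stromal cells thinned in the same way, which was 0 of 44 Live-seq IBA cells, 0.654% of scRNA-seq IBA cells and 3 of 60 scRNA-seq ASPC_Pre cells.

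**Figure D4:**
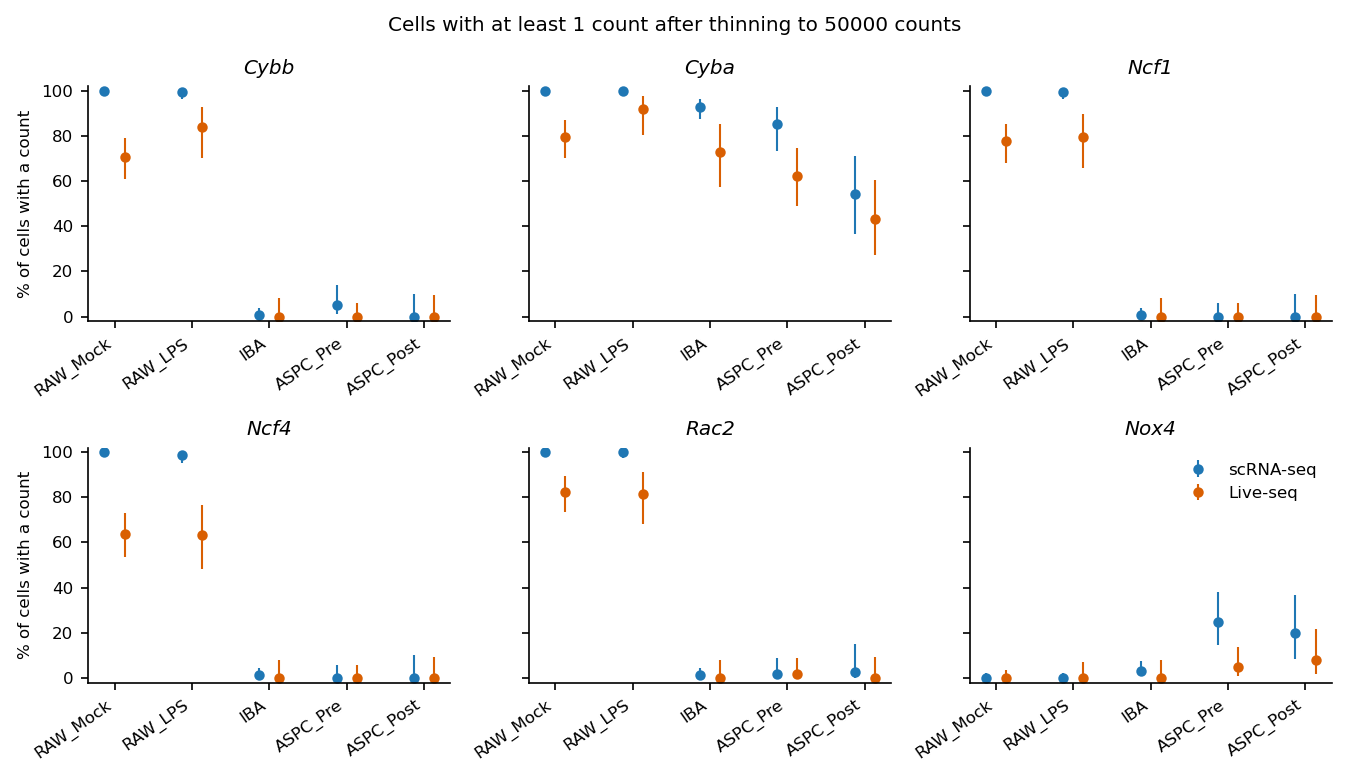
Share of cells with at least 1 count of each gene after every cell was thinned to 50000 counts, with exact 95% binomial intervals, for scRNA-seq (blue) and Live-seq (orange). The phagocyte genes sit at 98.7 to 100% in scRNA-seq RAW cells and between 63.3 and 91.8% in Live-seq RAW cells, and Nox4 reaches 15 of 60 scRNA-seq ASPC_Pre cells.

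The levels of the genes, in contrast to the shares of cells, did not differ by the test between techniques. In the joint fit, edgeR and DESeq2 called 0 of the 6 genes in RAW_Mock, where edgeR called 0% of all genes, 4.56% had an unadjusted p under 0.05, none of the 6 among them, and DESeq2 called 0.958%. In RAW_LPS the members' count was again 0 by both tools, with 0%, 8.35% and 1.89% over all genes, and the 1 member with an unadjusted p under 0.05 was Nox4, which rests on 10 counts in 2 cells. Nox4 was near 0 in RAW cells of both techniques, so its lack of calls in these contrasts is no result. The Live-seq minus scRNA-seq log2 differences in RAW_Mock were -0.01 for Ncf1, 0.08 for Ncf4, -0.45 for Cyba, -0.68 for Cybb and 0.16 for Rac2, beside a median of -0.29 over all genes. In RAW_LPS they were -0.25, -0.65, 0.02, -0.24 and 0.06, beside a median of -0.25.

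Batch 8_8 alone held both techniques, and with batch in the joint model Cybb went from -0.68 to 0.08 in RAW_Mock and from -0.24 to 0.44 in RAW_LPS. The LPS response was not called as different between techniques for any of the 6 genes by either tool; none had an unadjusted p under 0.05, over all genes edgeR called 0%, 4.30% had an unadjusted p under 0.05 and DESeq2 called 1.25%. For Cybb the difference of responses was 0.43 (SE 1.14), Live-seq minus scRNA-seq. Nox4, near 0 in RAW cells of both techniques, could hardly give a call here.

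Whole cells of a state varied widely in Cybb. In scRNA-seq the quartiles over RAW_LPS cells were 2492 and 4351 CPM around a median of 3496, against 710.6 and 1847 around 1190.5 in RAW_Mock cells. These quartiles are over the cells of all batches, and within batch 9_1 they overlapped, with a lower quartile of 715.9 CPM with LPS and an upper quartile of 1159 CPM in RAW_Mock. Within the 6 scRNA-seq sets of RAW cells of a batch and state, the Spearman correlation between Ncf1 and Cybb ran from -0.01 to 0.58, with a median of 0.31. The other 9 pairs of the 5 genes had medians from -0.11 to 0.22. The cells of a set share a batch and differ in depth, and weak correlations in such counts are no finding.

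Across the sums, the phagocyte subunits followed other leukocyte genes, which restates the contrast between macrophages and stromal cells. By Pearson correlation of log2 levels over the 12 scRNA-seq sums, the gene most like Cybb was Stap1, an adaptor protein of blood cells (r = 0.998, and 0.998 over the 15 Live-seq sums). The gene most like Ncf1 was Hcls1, an actin regulator of blood cells (0.9996 and 0.987), followed by Clec5a and by Spi1, which encodes PU.1. Ncf4 was closest to Cd72 (0.998 and 0.960), Rac2 to Ptprc, which encodes CD45 (0.997 and 0.856), and Cyba to Coro1a (0.965 and 0.911). Nox4 was closest to Hist1h2be (0.974 and 0.871), at levels near 0 in most sums.

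Nox4 was detected in the stromal cells at low and uneven levels. Some stromal sums held more Cybb than Nox4, as the ASPC_Pre sum of scRNA-seq batch 8_8 did (1.46 and 0.729 CPM). In scRNA-seq it had 0.729 CPM in the ASPC_Pre sum of batch 8_8 and 11.3 CPM in that of batch 9_1, and 11.7 CPM in ASPC_Post. The IBA sums had 5.42 CPM in batch 8_8, where 1 of 15 cells held 69.2% of the counts, 2.57 CPM in batch 9_1 and 0.683 CPM in batch scRNA. ASPC_Pre lay above IBA in batch 9_1 and below it in batch 8_8, and the fitted difference was -0.51 on the log2 scale, IBA against ASPC_Pre, and 2.52 without batch 9_1. Counts were present in 28 of 60 ASPC_Pre cells (46.7%), 18 of 35 ASPC_Post cells (51.4%) and 10.5% of IBA cells. After thinning these shares were 15 of 60, 7 of 35 and 3.27%.

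RAW cells gave no Nox4 count in scRNA-seq, which, by 3 cells of the total, allows a share of cells with a count of up to 1.91% in RAW_Mock and 2.01% in RAW_LPS, a limit on detection and not on expression. Pooled over sums, Nox4 was therefore at least 90.1-fold higher in IBA and ASPC_Pre than in RAW_Mock, with RAW_Mock set to 3 counts in total. The call of this contrast was lost without batch 9_1 (edgeR adjusted p = 0.0625). In Live-seq, Nox4 was at 14.02 CPM in the ASPC_Pre sum of batch 9_4, where 1 of 43 cells held 79.8% of the counts, at 0 in that of batch 8_8, at 7.76 CPM in ASPC_Post and at 0 in all 3 IBA sums. No Live-seq IBA cell of 44 had a count, which allows a share of cells with a count of up to 6.82% by the same floor. RAW biopsies held 2 counts in 1 mock-treated cell and 10 counts in 2 LPS-treated cells, and the Live-seq contrast did not pass (adjusted p = 1).

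**Figure D5:**
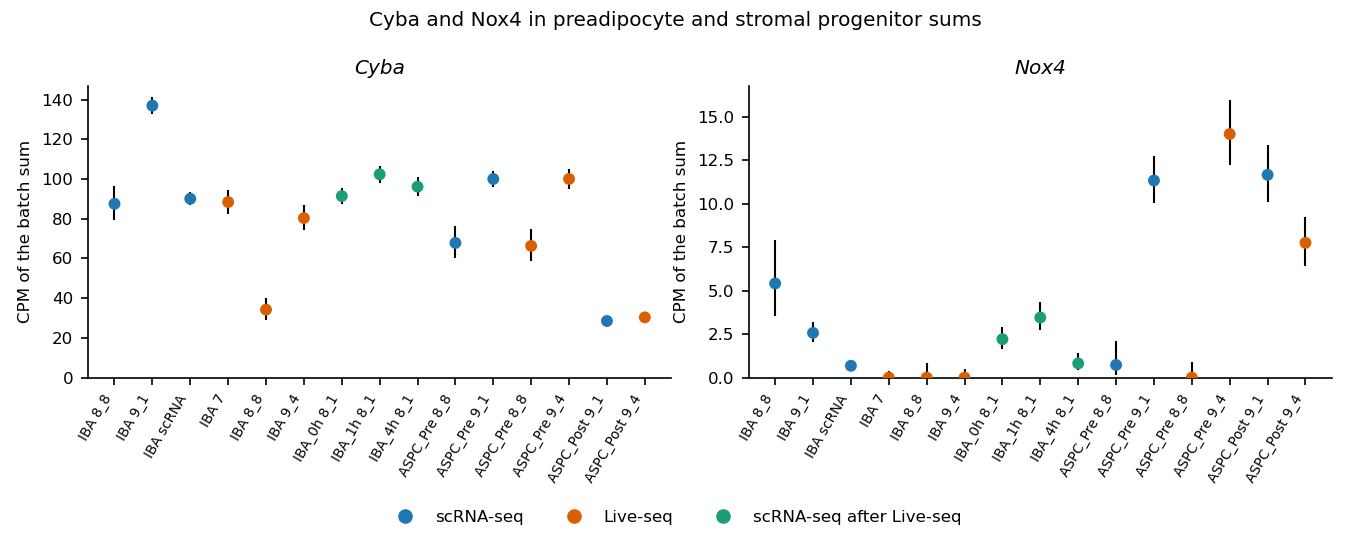
CPM of Cyba and Nox4 in each sum of IBA and ASPC cells, labelled by state and batch, with exact 95% Poisson intervals that cover counting error only, for scRNA-seq (blue), Live-seq (orange) and IBA cells after Live-seq (green). Cyba is at 28.5 and 30.3 CPM in the ASPC_Post sums, and Nox4 is highest in the ASPC sums of batches 9_1 and 9_4.

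Cyba was lower after adipogenic induction in both techniques, each of which had 1 batch with both states, so that there is no test. In scRNA-seq batch 9_1, Cyba had 100.04 CPM in ASPC_Pre and 28.5 CPM in ASPC_Post, 3.51-fold lower. In Live-seq batch 9_4 it had 100.08 and 30.3 CPM, 3.3-fold lower. Among genes of at least 5 CPM in either state, 12.5% were over 2-fold lower and 14.7% over 2-fold higher in the first comparison, and 19.7% and 14.8% in the second. Nox4 had 11.3 and 11.7 CPM in scRNA-seq, and 14.02 and 7.76 CPM in Live-seq, where single cells held 79.8 and 61.3% of the counts.

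By the sample labels, 9 progenitors, all of batch 9_4, were sampled by Live-seq both before and after induction. The paper reports fewer such pairs, linked by matching barcodes. Which of the labelled pairs it counted was not determined, and the barcodes were not checked here. Cyba was lower at the later sampling in 8 of 9, with a median of 16.1 CPM before and 0 after, although in 1 of these 8 the values were 8.60 and 8.55 CPM. The remaining cell had 2 counts before and 22 after. Nox4, Ncf1, Ncf4 and Rac2 had no count in any of these biopsies, and Cybb had 1 count in 1 of them.

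The catalytic and membrane genes of the stromal oxidase were also measured in IBA cells after Live-seq. Cyba was at 91.4 CPM at 0 h, 102.4 CPM at 1 h and 96.2 CPM at 4 h, and Nox4 was at 2.21, 3.46 and 0.817 CPM, on 54, 75 and 13 counts. Each time point was 1 sum, so the differences have no replicate check. Among genes of at least 5 CPM, 3.39% were over 2-fold higher and 5.93% over 2-fold lower than at 0 h after 1 h, and 3.95% and 7.73% after 4 h. Ncf1, Ncf4, Cybb and Rac2 had at most 1 count each at any time.

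Other genes around the oxidase were read from the same fits. Rac1, the widely expressed relative of Rac2, was lower in RAW_Mock than in the stromal cells in scRNA-seq (log2 fold change -1.07, SE 0.18, edgeR adjusted p = 0.00126).

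The assembly list holds kinases, exchange factors and adaptors that act on the oxidase or its GTPase (15 genes, 14 tested). With LPS edgeR called none in either technique, and the medians were -0.10 in scRNA-seq and 0.05 in Live-seq, beside -0.01 and -0.48 over all genes. Between RAW_Mock and the stromal cells, 5 were higher and 1 was lower in scRNA-seq (12.9% and 25% of all genes) and 3 were higher in Live-seq (1.26% of all genes), with medians of 0.75 and 0.96 beside -0.21 and -0.12 over all genes. The count in Live-seq was 0 without batch 8_8 and 1 (Pik3cg) without batch 9_4. Pik3cg, a phosphoinositide kinase of leukocytes, had 179.9 ± 35.9 CPM in scRNA-seq RAW_Mock (SD) and 0.0207 ± 0.0358 CPM in IBA. Vav1, which activates Rac, had 156.9 ± 16.4 and 1.25 ± 2.14 CPM, and Dock2, another activator of Rac, had 187.99 ± 50.1 and 1.70 ± 2.77 CPM. Sh3pxd2a, an adaptor of podosomes, had 7.78 ± 3.03 CPM in RAW_Mock and 109.6 ± 25.3 CPM in IBA (log2 fold change -4.36 against the stromal cells, SE 0.39). The IBA values of scRNA-seq include the cell against its label, and without it the list's calls were again 5 higher and 1 lower. Pik3cg, Vav1 and Dock2 were also called in Live-seq with all batches.

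The removal list holds enzymes that take up superoxide and peroxide (15 genes, all tested), and it alone of 3 lists, beside those of assembly and of peroxide-linked enzymes, held LPS calls. In scRNA-seq 3 of 15 rose and none fell, beside 0.921% higher and 0.310% lower over all genes, with a median of -0.02 over the list and -0.01 over all genes. These calls were mostly lost when a batch was left out: edgeR called none of the 15 without batch 8_8 or batch scRNA, and 1 (Sod2) without batch 9_1. Calls over all genes fell as well. Without batch 8_8 edgeR called no gene of the table, without batch 9_1 0.133% and without batch scRNA 0.0295%. Sod2, the mitochondrial superoxide dismutase, went from 359.2 ± 72.9 to 1528 ± 72.8 CPM (SD), a log2 fold change of 2.24 (SE 0.22, edgeR adjusted p = 0.00639). Prdx5, a peroxiredoxin, went from 138.5 ± 17 to 263.002 ± 62.04 CPM (1.03, SE 0.20, adjusted p = 0.0459). Gpx3, a secreted glutathione peroxidase, rose as well (adjusted p = 0.0405), from 0.0194 ± 0.0336 to 0.659 ± 0.604 CPM, levels near 0. In Live-seq edgeR called none of the 15, with a median of -0.02, and Sod2 was at 1.70 (SE 0.71, unadjusted p = 0.0354, adjusted p = 1).

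Between RAW_Mock and the stromal cells, 1 gene of the removal list was higher and 3 were lower in scRNA-seq, and 2 were lower in Live-seq, with medians of -0.38 and -0.54. Over all genes, 12.9% were higher and 25% lower in scRNA-seq and 1.62% lower in Live-seq, with medians of -0.21 and -0.12. Gpx3 and Sod3, the extracellular superoxide dismutase, were lower in both techniques, in Live-seq not without batch 8_8 or batch 9_4. Gpx3 had 1475 ± 1347 CPM in scRNA-seq ASPC_Pre (SD, n = 2) and 6.83 ± 2.47 CPM in IBA (n = 3), and Sod3 had 176.6 ± 229.1 and 127.8 ± 79.6 CPM. Prdx5 was also lower (-1.71, SE 0.19, adjusted p = 0.000167) and Sod2 higher (1.09, SE 0.19, adjusted p = 0.00167) in RAW_Mock in scRNA-seq.

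The list of peroxide-linked enzymes holds other sources of oxidants and enzymes of the response to them (6 genes, 4 tested). With LPS edgeR called none, with a median of 2.41 in scRNA-seq and 0.64 in Live-seq. Nos2, the inducible nitric oxide synthase, named here after its values were seen, went from 2.71 ± 4.69 to 52.7 ± 40.9 CPM in scRNA-seq (log2 fold change 6.15, SE 1.54, unadjusted p = 0.00386, edgeR adjusted p = 0.118). Between RAW_Mock and the stromal cells, 2 were lower in scRNA-seq (25% of all genes) and 1 in Live-seq (1.62% of all genes), with medians of -5.74 and -6.19 over 4 genes, beside -0.21 and -0.12 over all genes. These were Nqo1, a quinone reductase, in both techniques (in Live-seq not without batch 7, 8_8 or 9_4), and Xdh, a xanthine dehydrogenase, in scRNA-seq, at 76.7 ± 37.96 and 5.202 ± 4.016 CPM in IBA against 0.00971 ± 0.0168 and 0.0770 ± 0.133 CPM in RAW_Mock.

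Between the 2 stromal cell types, each of these 3 lists held calls in scRNA-seq, where 3.69% of all genes were higher and 7.47% lower in IBA. Pik3cd, which encodes a leukocyte phosphoinositide kinase and was 1 of 14 assembly genes, and 2 of the 15 removal genes, among them the peroxiredoxin gene Prdx4, were higher in IBA. The proton channel gene Hvcn1, also 1 of 14 assembly genes, 4 removal genes, among them Gpx3 and Cat (catalase), and the 3 peroxide-linked genes Xdh, Nqo1 and Hmox1, the inducible heme oxygenase, were lower in IBA. Prdx6, a peroxiredoxin, was lower in both techniques, by -2.93 (SE 0.29, edgeR adjusted p = 0.00167) and -3.88 (SE 0.47, adjusted p = 0.0301). In Live-seq Prdx6 was the 1 gene of the 3 lists called, beside 0.0149% lower over all genes. Without batch 7 it lost its call, and Gpx3 was the 1 gene of the lists called. Without batch 8_8 or batch 9_4 edgeR called no gene of the table. The medians of the assembly, removal and peroxide-linked lists were 0.09, -0.43 and -2.78 in scRNA-seq, beside -0.12 over all genes, and -0.19, -0.64 and -4.12 in Live-seq, beside 0.08. Without batch 9_1, the scRNA-seq calls of the 3 lists were Gpx3 and Prdx6, both lower. Without the cell against its label, each list held as many calls in each direction. No gene of the 3 lists was called by edgeR between techniques or for the difference of the LPS responses.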

How the data were processed

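Gene counts were used as deposited: the authors aligned Smart-seq2 reads to mm10/GRCm38 with STAR 2.6.1c, kept uniquely mapped reads, counted them per Ensembl gene with HTSeq without strand, and merged 1012 cells into a single table (296 Live-seq cells, 554 scRNA-seq cells, 162 IBA cells after Live-seq; base calls by bcl2fastq 2.19.1). Groups came from the sample titles.

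Counts of 20 negative-control and 85 ribosomal protein genes (median 24.2% of a cell) were left out, and cells were summed by batch and state where at least 3 were present (15 Live-seq sums of 1410459 to 18079052 kept counts, 12 scRNA-seq sums of 4112826 to 34325989). A gene was tested if no fewer than 15% of cells in any scRNA-seq state had 2 or more counts and it passed filterByExpr (minimum count 2, proportion 0.05), which left 13565 genes in scRNA-seq and the joint fit and 13465 in Live-seq. edgeR 4.0.16 (R 4.3.3; TMM, quasi-likelihood F-test with the earlier type of fit, prior count 0.125) was run on state and batch within each technique, and on state by technique without batch in the joint fit, with Benjamini-Hochberg adjustment over all genes. The SE is the log2 fold change divided by the root of F. A call needed an adjusted p under 0.05 and an absolute log2 fold change over 1. The test was tested on simulated data.

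Nothing says that batches came from separate cultures or animals, so p-values measure the spread between batch sums. The labels give the batch that states share, which was the block, and the deviations of sums from state means correlated within batch by 0.00210 to 0.237 in Live-seq and 0.287 to 0.522 in scRNA-seq. Intervals are exact at 95% and, like the floor of 3 counts, cover counting error only. Alternatives were DESeq2 1.42.0, the newer edgeR fit, RLE factors, no low-count filter, no genes left out, thinning to 50000 counts, leaving out each batch, and batch left out or added; leaving out the cell against its label was added after seeing the data.

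The members and lists were chosen with earlier results of these data known. Named are the members, the 3 genes most correlated with each over the scRNA-seq sums (not all printed), up to 4 called genes of the largest change per list and contrast, and Tnf. A further gene list is not reported here. Promoters came from RefSeq (GRCm38.p6), and positions from the GENCODE annotation of GRCm38.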

Additional observations from a re-analysis of the deposited data

How the results depend on the processing

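The 42 log2 fold changes of the 6 genes were recomputed under each alternative, and of these values 3 lost a call, 4 gained one, 37 turned direction, and the rest kept both their direction and their side of the threshold. The number of members called with LPS was 0 in each technique, and 1 (Cybb) with DESeq2 in Live-seq and 1 (Cybb) after thinning in scRNA-seq. Cyba between RAW_Mock and the stromal cells in Live-seq passed with DESeq2 and the newer edgeR fit; Ncf4 in Live-seq and Nox4 in scRNA-seq lost their calls without a batch, as given above. No member lost or gained a call when the replicate block (batch) was left out, the members called staying at 0 with LPS in each technique, 4 between RAW_Mock and the stromal cells in Live-seq and 6 in scRNA-seq.

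For the values that turned direction the cause was not tested. With the replicate block added to the joint model, the Live-seq minus scRNA-seq difference in RAW_LPS was -0.25 for Cyba, 0.44 for Cybb and 0.077 for Ncf1, and in RAW_Mock 0.078 for Cybb, 0.59 for Ncf1 and -0.034 for Ncf4. For Ncf1 in RAW_Mock it was 0.10 after thinning, 0.14 with DESeq2 or RLE factors, 0.022 with no filter and 0.021 with no genes left out. Rac2 was at -0.068 with LPS in Live-seq after thinning, at 0.011 for the difference of LPS responses with DESeq2 and 0.010 with RLE factors, and at -2.58 for IBA against ASPC_Pre in scRNA-seq without the cell against its label, where both groups are near 0 and the value depends on the prior count. Leaving out 1 batch at a time, the Live-seq minus scRNA-seq difference in RAW_LPS ran from -0.11 to 0.33 for Cyba, from -0.48 to 0.20 for Cybb and from -0.48 to 0.084 for Ncf1, and in RAW_Mock from -0.93 to 0.065 for Cybb and from -0.17 to 0.33 for Ncf1. The difference of LPS responses ran from -0.53 to 0.037 for Ncf1 and from -0.32 to 0.050 for Rac2, the Live-seq LPS change from -0.15 to 0.61 for Ncf1 and from -0.14 to 0.24 for Rac2, and the scRNA-seq difference of IBA against ASPC_Pre from -2.50 to 2.52 for Nox4 and from -5.06 to 10.87 for Rac2, again with groups near 0.

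Counts of calls over all genes moved more, given here as percent of the genes of the reported fit. For LPS in scRNA-seq they were 1.23%, and 3.28% after thinning, 5.26% with DESeq2, 3.03% with the newer edgeR fit, 1.87% with no filter, 0.258% without the block and 0 to 0.133% without a batch. For LPS in Live-seq they were 0%, and 0.141% after thinning, 4.79% with DESeq2 and 0.00743% with no filter. For RAW_Mock against the stromal cells in Live-seq they were 2.87%, and 6.498% after thinning, 13.4% with DESeq2, 7.73% with the newer fit, 6.28% without the block and as little as 0.178% without batch 8_8. For IBA against ASPC_Pre they were 11.2% in scRNA-seq, and 19.4% with the newer fit, 7.00% without the block and 0.317% without batch 9_1, and 0.0223% in Live-seq, and up to 2.06% with DESeq2 and 0% without batch 8_8 or batch 9_4. Between techniques they were 0%, and 0.958% (RAW_Mock), 1.89% (RAW_LPS) and 1.25% (LPS responses) with DESeq2 and 0.162%, 0.442% and 0.221% with no filter.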
